A study of Mus musculus and Homo sapiens with 12 samples.

Results

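AluJ elements and the Alu monomers FLAM, FRAM and FAM are the oldest members of the human Alu family, and their RNA was measured here in the m5C-bound fraction of chromatin-associated RNA (caRNA) of K-562 cells with and without TET2. They were chosen by name alone: every row of the hg38 repeat table whose family was Alu and whose subfamily name began with AluJ, FLAM, FRAM or FAM. This gave 348933 elements among the 7078039 elements of the human and mouse tables together, and among the 3919868 of the human table. AluJ made up 283514 of them, in the subfamilies AluJb, AluJr, AluJo and AluJr4. FLAM (FLAM_A and FLAM_C) made up 40430, FRAM 20650 and FAM 4339. Only 16720 of the 348933 elements, 4.79%, had a count above 0 in any library.

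K-562 is a chronic myeloid leukaemia line. The WT group was K-562 with TET2 intact and the KO group was K-562 with TET2 knocked out (TET2−/−), 3 libraries each, both grown without any further treatment that the labels tie to these libraries. TET2 is a dioxygenase that oxidizes 5-methylcytosine (m5C) in DNA and RNA. caRNA was immunoprecipitated with an antibody against m5C, and only these precipitated libraries were used. The study names WT and TET2−/− K-562 lines that were gifts made earlier, and also WT K-562 from the American Type Culture Collection. Its methods do not say which WT cells gave these libraries. Whether the KO line is 1 clone is not stated. One label field of the KO libraries spells the line K563, which was read as a typing error for the K562 of the titles. The table covers repeat elements only, so neither the loss of TET2 nor the identity of the cells was checked from it. The study calls its replicates biological in several figure legends, including the legend that covers its K-562 m5C changes by repeat family. No source used here says whether these libraries came from separate cultures. The p-values therefore measure the spread between these libraries, which may be technical.

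Alu elements are primate short interspersed elements that arose from 7SL RNA, the RNA of the signal recognition particle. A fossil Alu monomer (FAM) is regarded as the earliest form, from which free left arm monomers (FLAM) and free right arm monomers (FRAM) came. An AluJ is a dimer of such arms, and AluS and AluY are successively younger dimers. The left arm carries the A box and B box of an internal RNA polymerase III promoter, but most copies lie inside genes and can be transcribed as part of an intron.

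The promoter boxes were searched as letters on both strands of every element in hg38: the A box as TGGCTCACG or its shortened form TGGCTCA, and the B box as GTTCGAGAC or its relaxed form GNTCNANNC, which the full string also matches. Over all 348933 elements, 47.3% held the relaxed B box on their own strand and 10.5% on the other strand, and 5.98% and 0.121% held the full string. The A box string was in 6.44% on their own strand and in 0.297% on the other, and its shortened form in 42.1% and 17.7%. A match to these letters is a description and not evidence of transcription from the element.

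Elements with counts differed in sequence from those without. Their median length was 294 bp against 274 bp, and they held a median of 1.20 CpG per 100 bases against 0.977 at the same median GC content of 50%. The A box string was present in 10.4% of elements with counts and 6.24% of those without, the full B box string in 8.17% and 5.87%, and a run of 10 or more A in the last 30 bases in 36.1% and 22.7%. Among AluJ elements with counts, 87.1% covered both arms, against 78.2% of those without. These are shares of elements from the same libraries, and a longer element has more room for a read and for a motif.

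AluJ and monomer elements held 4.18%, 4.02% and 3.35% of the counts of the WT libraries and 4.68%, 3.83% and 4.81% of the KO libraries (totals over the DNA, LINE, LTR and SINE classes ran from 498145 to 649905 for WT and from 715023 to 827341 for KO). The groups overlapped, because KO replicate 2 lay below WT replicates 1 and 2. The log2 ratio of the mean shares was 0.21 (exact permutation test, two-sided, p = 0.3, adjusted p = 0.4 over 4 such tests). With 3 libraries against 3 no exact p can be below 0.1. Elements of any kind near the ribosomal RNA genes, which are not mainly AluJ or monomers, took 10.6% to 12.7% of a WT library's counts and 26.6% to 27.0% of a KO library's, so they lower every other share in KO. When all elements near ribosomal DNA were left out, the AluJ and monomer share was 4.25%, 4.14% and 3.57% in WT and 6.25%, 4.77% and 6.17% in KO, and the groups no longer overlapped (log2 ratio of means 0.52, exact permutation test, two-sided, p = 0.1). This alternative was chosen after seeing the data. It raises the share of any element elsewhere more in KO than in WT, so the gap need not be particular to AluJ and monomers. Since no input RNA was used here, a difference in the share cannot be divided into RNA amount and m5C enrichment.

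The counts were thinly spread and uneven. Of the elements with counts, 80.4% were seen in 1 library only and 123 in all 6. Of the 686 elements with at least 50 counts over the 6 libraries, 446 (65.0%) had at least 90% of them in 1 library, against 48.7% of such elements of all 4 classes, 71.0% for AluS and 66.3% for AluY. The 100 highest elements held 30.7% of all AluJ and monomer counts. Between 2725 and 3924 elements had a value above 0 in a WT library and between 3832 and 4444 in a KO library. Per 100000 counts this was 604, 547 and 540 elements in WT and 541, 536 and 492 in KO (difference of means −40.8, exact permutation test, two-sided, p = 0.2). That difference turned positive, to 23.4, when only values of at least 1 were counted.

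The 4 AluJ subfamilies held 87.0% ± 8.56 of AluJ and monomer counts in WT and 85.7% ± 6.17 in KO (SD, n = 3), and none changed past the threshold. The plot of subfamily levels gives every library, in CPM, counts scaled to the library size after TMM normalization. AluJb, the most abundant, had 14471, 12650 and 16262 CPM in WT and 14672, 14469 and 15252 CPM in KO, and the KO values lay inside the WT range. AluJr had 16271, 12138 and 12040 CPM in WT and 13813, 9384 and 12963 CPM in KO, again overlapping. AluJo had 4179, 6228 and 7548 CPM in WT and 9347, 6912 and 8340 CPM in KO, where KO replicate 2 lay below WT replicate 3. AluJr4, the rarest of the 4, had 1376, 1322 and 424 CPM in WT and 2383, 1536 and 1654 CPM in KO. On this TMM-normalized scale it was the only 1 of the 8 subfamilies whose KO values all lay above the WT values, where 10.3% of all tested subfamilies did so, and in none did they all lie below, where 6.63% did.

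**Figure D1:**
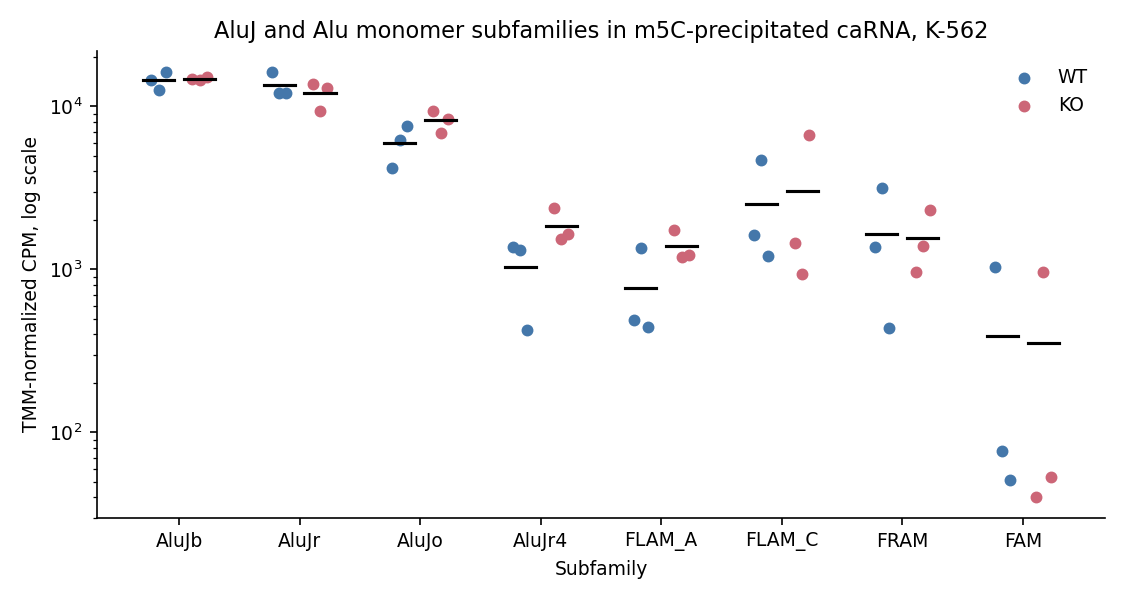
TMM-normalized CPM (vertical axis, log scale) of the 8 subfamilies (horizontal axis) in each WT (blue) and KO (red) library, with the mean of 3 libraries as a black line. AluJb lies between 12650 and 16262 CPM in every library, while FAM runs from 40.4 to 1041 CPM.

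Among the left arm monomers, FLAM_A had 493, 1360 and 444 CPM in WT and 1741, 1193 and 1229 CPM in KO, and WT replicate 2 lay within the KO values. FLAM_C had 1624, 4721 and 1211 CPM in WT and 1446, 940 and 6711 CPM in KO, with 1 library of each genotype far above the others. The right arm monomer FRAM had 1371, 3159 and 436 CPM in WT and 958, 1401 and 2309 CPM in KO. FAM, the putative founder monomer, had 1041, 77.0 and 51.2 CPM in WT and 40.4, 967 and 53.6 CPM in KO. Its level therefore rested on WT replicate 1 and KO replicate 2, and a single element gave 53.7% of the FAM counts of the latter. In FLAM_C a single element gave 68.1% of the counts of WT replicate 3 and 42.3% of those of WT replicate 2.

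No AluJ or monomer subfamily passed the edgeR quasi-likelihood test at an adjusted p under 0.05, where 1.05% of the 573 subfamilies tested were called, and none of the 8 had an unadjusted p under 0.05, where 13.8% of all did. By DESeq2's Wald test no member was called either, with no adjusted p given for FAM, against 10.6% of all subfamilies. Fitted log2 changes, KO over WT, were 0.03 ± 0.19 (SE) for AluJb, 0.45 ± 0.32 for AluJo, −0.16 ± 0.24 for AluJr and 0.83 ± 0.67 for AluJr4. For the monomers they were 0.86 ± 0.75 for FLAM_A, 0.27 ± 0.83 for FLAM_C, −0.09 ± 0.78 for FRAM and −0.14 ± 1.57 for FAM. Adjusted p-values (edgeR, Benjamini–Hochberg over all subfamilies, n = 3 per group) ran from 0.544 for AluJo to 0.976 for FAM. The fit was above 0 for 5 of the 8, where 50.8% of all subfamilies were. The median of the 8 changes was 0.15, and that of all tested subfamilies was 0.03. The 95% interval for AluJb, −0.40 to 0.47, was the narrowest, and the fitted change of AluJb was 0.87 when elements with 90% or more of their counts in 1 library were left out. For FAM the interval ran from −3.70 to 3.42, so a change of several-fold in either direction would not have been detectable. The sign was not stable for AluJb, AluJr, FAM, FLAM_C or FRAM under other processing.

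**Figure D2:**
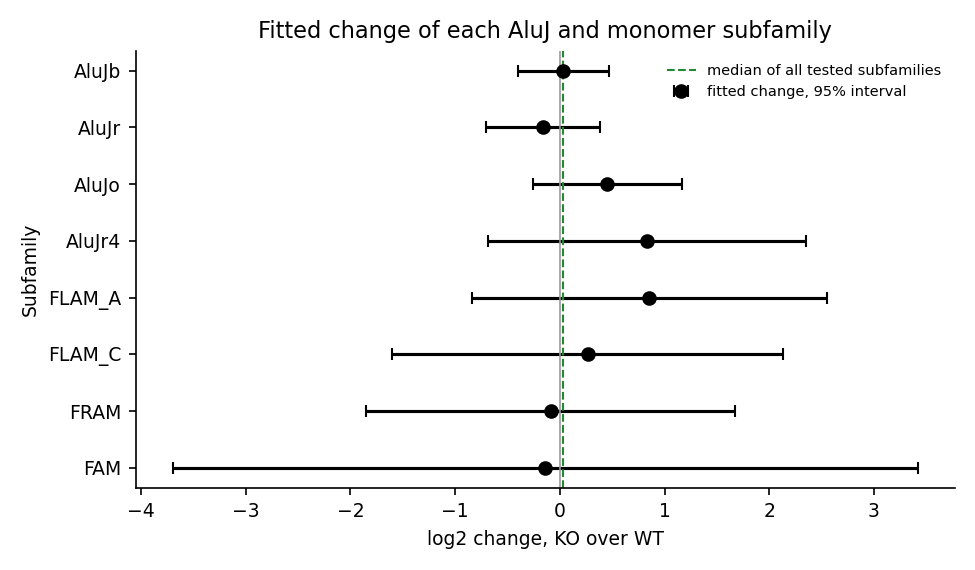
Fitted log2 change, KO over WT (horizontal axis), of each subfamily (vertical axis) with its 95% interval from the edgeR fit, and the median of all tested subfamilies as a dashed line at 0.03. Every interval includes 0.

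Levels can be set side by side only per length. In CPM of library totals per annotated Mb, WT means ± SD (n = 3) were 446 ± 44.4 for AluJb, 431 ± 109 for AluJr, 527 ± 112 for AluJo, 350 ± 195 for AluJr4, 415 ± 284 for FLAM_A, 775 ± 597 for FLAM_C, 556 ± 464 for FRAM and 600 ± 882 for FAM. Ordered by WT mean, from AluJr4 to FLAM_C, neighbouring subfamilies differed by less than the larger of their SDs. In KO the means were 494 ± 7.11, 412 ± 80.9, 791 ± 125, 659 ± 178, 809 ± 197, 976 ± 1002, 547 ± 224 and 557 ± 839 in the same order of subfamilies. On this scale, without TMM, the KO values lay above the WT values in AluJb (488 to 502 against 396 to 481), AluJo (674 to 924 against 402 to 617) and AluJr4 (550 to 864 against 127 to 485). The share of all subfamilies for which this held was not computed on this scale, so it is not read as unusual. The gap for AluJb was small, 488 against 481. AluS, with 491 ± 29.1 in WT and 463 ± 43.1 in KO, was at a similar density, and AluY stood above it, at 1158 ± 161 in WT and 687 ± 87.7 in KO.

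The counts of AluJ and monomers relative to AluS and to AluY did not overlap between the genotypes. A ratio taken inside a library does not depend on how the library is scaled. AluJ and monomer counts were 0.772, 0.831 and 0.818 times the AluY counts in WT and 1.59, 1.58 and 1.54 times in KO. All 3 KO ratios lay far above the WT ratios, and the spread within a group was small (difference of mean log2 ratios 0.96, exact permutation test, two-sided, p = 0.1, the smallest possible). Against AluS, the ratios were 0.403, 0.392 and 0.360 in WT and 0.450, 0.420 and 0.552 in KO, which did not overlap either (difference 0.29, exact permutation test, two-sided, p = 0.1, and 0.28 with p = 0.2 over elements with at least 10 counts). The higher ratio to AluY was not particular to AluJ and monomers, since AluS counts were 1.92, 2.12 and 2.27 times the AluY counts in WT and 3.52, 3.75 and 2.79 times in KO (difference of mean log2 ratios 0.67, exact permutation test, two-sided, p = 0.1). Against AluS and AluY together the difference of mean log2 ratios was 0.47 (exact permutation test, two-sided, p = 0.1, adjusted p = 0.4 over 4 tests), with values between −1.999 and −1.91 for WT and between −1.59 and −1.30 for KO. AluY itself held 5.41%, 4.83% and 4.09% of counts in WT and 2.95%, 2.43% and 3.12% in KO. AluY reads were more often divided between elements, since values below 1 made up 8.77% of AluY counts in WT and 10.98% in KO on average, against 2.22% and 1.51% for AluJ and monomers. The part of values below 1 in the ratio was not tested.

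**Figure D3:**
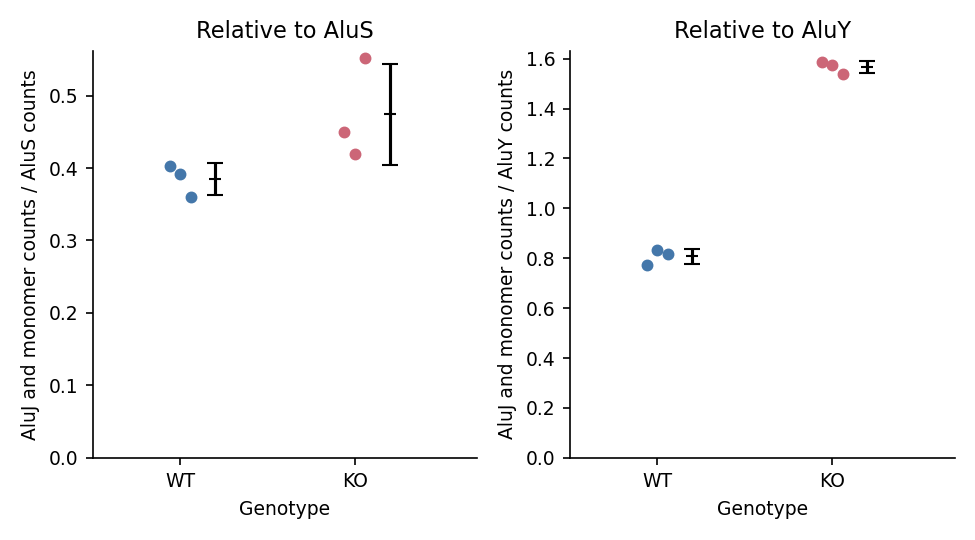
Summed AluJ and monomer counts divided by AluS counts (left) or AluY counts (right) in each WT and KO library (points), with mean and SD (n = 3) beside them on an axis from 0. The AluY ratio lies between 0.772 and 0.831 for WT and between 1.54 and 1.59 for KO.

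Most counts came from elements inside introns in both genotypes. On the 25 annotated chromosomes, introns held 75.0%, 68.3% and 73.1% of AluJ and monomer counts in WT and 69.8%, 75.7% and 65.1% in KO (difference of means −1.93 percentage points, exact permutation test, two-sided, p = 0.7). Introns hold 62.4% of the annotated elements. Of the intronic counts, 63.1% ± 7.83 in WT and 70.9% ± 4.08 in KO (SD, n = 3) came from elements on the same strand as their gene, although 44.2% of intronic elements lie that way. Exons held 11.2%, 13.4% and 10.7% in WT and 8.67%, 6.34% and 8.81% in KO, without overlap (difference −3.82 percentage points, exact permutation test, two-sided, p = 0.1, adjusted p = 0.75 over 15 shares). Without the elements near ribosomal DNA the exonic difference was 0.063 percentage points. Those elements are 70 of 348933, 41 of them with counts, yet they gave 9.22%, 9.71% and 6.96% of AluJ and monomer counts in WT and 2.49%, 8.97% and 5.80% in KO. Contigs outside the annotated chromosomes, with 4.02% of the elements, gave 27.9% ± 4.65 of counts in WT and 23.9% ± 4.74 in KO. Dimers that cover both arms held 78.8% ± 8.89 of AluJ counts in WT and 78.0% ± 2.90 in KO, against 78.7% of AluJ elements.

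Of the single elements, 91 passed the filter on low counts, and they held 18.97% of AluJ and monomer counts. They were 85 AluJ, 4 FLAM, 2 FRAM and no FAM. By context, 59 were intronic, 10 exonic, 10 intergenic and 12 on other contigs, and 20 lay near ribosomal DNA. None was called by edgeR at an adjusted p under 0.05, where 0.0959% of the 3127 elements tested were. By edgeR 15 of the 91 had an unadjusted p under 0.05, where 7.48% of all did. Of the AluS elements tested 26 of 150 did so, and of the AluY elements 2 of 39. DESeq2's Wald test called 14 of the 91, 13 higher and 1 lower in KO, where it called 5.56% of all elements, 4.03% higher and 1.54% lower. The filter needs counts in 3 libraries, and 10 of the 91 reached its minimum in the 3 KO libraries only and 4 in the 3 WT libraries only, so such elements had to differ. All of these 10 were among the 15 with an unadjusted p under 0.05 by edgeR and among the 13 that DESeq2 called higher. The 1 that DESeq2 called lower was among these 4. The number of DESeq2 calls and the number with an unadjusted p under 0.05 thus rest mostly on elements that the filter selected for a difference. Neither is read as a result about AluJ and monomers. The KO values lay wholly above the WT values in 22 elements and wholly below in 4, where 8.76% and 6.46% of all tested elements did so. For AluS this held for 35 and 12 of 150 elements, and for AluY for 2 and 3 of 39. Many elements wholly above WT were thus not particular to AluJ and monomers. The 22 include the 10 that passed the filter through the KO libraries only.

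Many of these elements are not separate measurements. For 63 of the 91 (69.2%) another AluJ or monomer element in the genome shared at least 95% of its sequence, so reads could be divided between copies, and the 91 formed 51 groups of such copies. The 22 higher elements came from 12 groups and 18 of them had a copy, while the 4 lower elements had none. Of the 22, 10 passed the filter through the KO libraries only, and the AluJr elements among the 4 through the WT libraries only. For those the filter itself favoured groups that do not overlap, so 22 against 4 is a description only. As a description of the elements that passed the filter, the median fitted log2 change was 1.76 in the 63 with a copy and −0.16 in the 28 without, and 49 and 12 of them were fitted above 0. Over all 91 the median was 0.62, against 0.12 over all elements tested. It was 0.92 over the 150 AluS elements and 0.05 over the 39 AluY elements tested, so a raised median was not particular to AluJ and monomers. Scaling by library totals alone moved the median of the 91 to −0.30 and that of all elements tested to −0.77. The number of the 91 fitted above 0 went from 61 to 44. Over all elements tested 54.1% were fitted above 0.

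**Figure D4:**
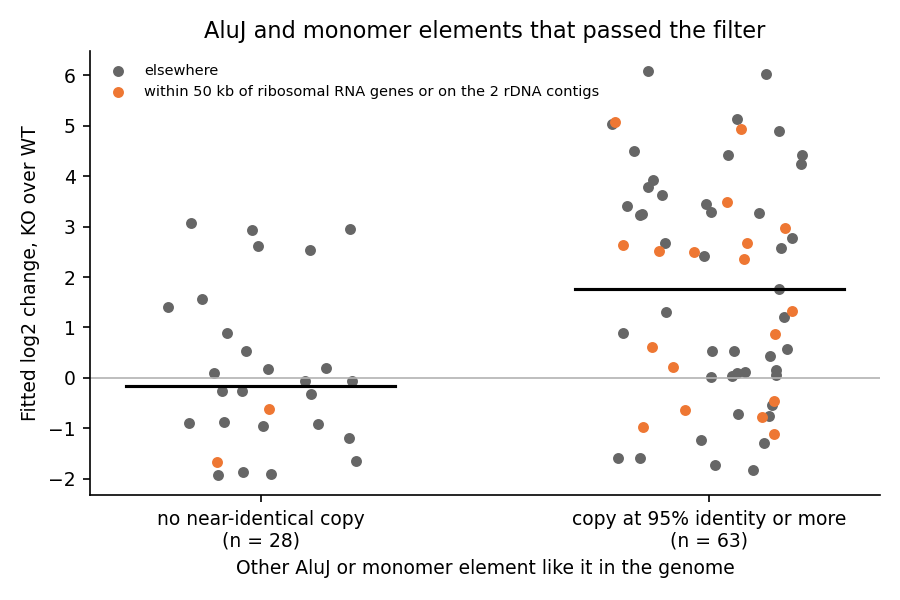
Fitted log2 change, KO over WT (vertical axis), of the 91 AluJ and monomer elements that passed the filter, by whether another AluJ or monomer element of at least 95% identity exists (horizontal axis), with medians of 1.76 and −0.16 as black lines. Orange points are the 20 elements near ribosomal DNA, and points are spread sideways only to be seen.

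The largest fitted increases among elements without overlap were in an AluJb pair that is identical in sequence, at chr3:198211485-198211592 and chr5:181317070-181317177, both in introns of long non-coding RNA genes near chromosome ends. Each has 18 copies of at least 95% identity, 15 of them identical. Neither had any count in a WT library. KO counts were 223, 92.9 and 13.7 for the chromosome 3 element and 223, 104 and 15.7 for the chromosome 5 element. Both passed the filter on low counts through the KO libraries only, so no fold or test is given for them. The AluJb right arm in an intron of CCDC200 on chromosome 17, chr17:43238128-43238304, had WT counts of 0, 0 and 2.00 against KO counts of 45.9, 33.6 and 172. It also passed the filter through the KO libraries only, so again no fold or test is given. It has 4 copies, all with counts.

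The short AluJo left arm fragment at chr21:8225337-8225393, in the ribosomal DNA region, had WT counts of 0.20, 1.30 and 2.70 against KO counts of 109, 104 and 57.4. This fragment passed the filter through the KO libraries only, so no fold or test is given. It has 4 copies, 3 of them identical, and the 4 elements of its group that passed the filter summed to 0.50, 4.00 and 318 WT counts against 311, 358 and 180 KO counts, so over the copies the groups overlapped. The AluJr element at chr7:102348895-102349496, in SPDYE6 on the strand opposite to the gene and with 9 copies, had WT counts of 3.25, 1.33 and 0 against KO counts of 95.3, 85.6 and 95.6. For the same reason no fold or test is given for this AluJr element. The 3 elements of its group of copies that passed the filter summed to 29.6, 569 and 0 WT counts against 383, 219 and 315 KO counts, so WT replicate 2 lay above every KO library. SPDYE6 belongs to a gene family with many copies on chromosome 7.

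Only 4 elements lay wholly lower in KO, all without a near-identical copy, so their reads are easier to place. The AluJr left arm in an intron of CCDC91, chr12:28447570-28447670, had WT counts of 26.7, 39.5 and 39.9 against KO counts of 6.70, 7.20 and 5.40. The intergenic AluJr at chr12:23322370-23322605 had WT counts of 49.8, 23.7 and 15.0 against KO counts of 4.40, 9.20 and 2.00. Both AluJr elements passed the filter on low counts through the WT libraries only, so no fold or test is given for them. The FRAM at chr11:5307788-5307939 lies upstream in the globin region, in intronic sequence of long transcripts assigned to HBE1 and HBG2, the embryonic and a fetal globin gene, on their strand. This FRAM lies equally in introns of OR51B5 and of a further gene without a symbol, both on the same strand. It had WT counts of 62.4, 49.6 and 41.3 against KO counts of 24.0, 16.7 and 25.4 (log2 change −0.88 ± 0.74, edgeR, adjusted p = 0.827). The FRAM at chr19:14389032-14389144 in an intron of ADGRE5, the gene of the surface receptor CD97, had WT counts of 36.8, 23.8 and 32.6 against KO counts of 16.6, 10.9 and 8.53 (log2 change −0.91 ± 0.60, edgeR, adjusted p = 0.770).

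The 5 elements with the highest mean count varied widely between replicates. The FLAM_C at chr21:8223579-8223644, which overlaps an exon of a long non-coding RNA gene in the ribosomal DNA region, had WT counts of 124, 958 and 402 against KO counts of 155, 219 and 0.40. A pair of identical AluJb elements near it, chr21:8222430-8222551 and chr21:8405429-8405550, had 184, 16.6 and 47.7 and 298, 28.1 and 52.1 counts in WT and 41.3, 199 and 962 and 43.2, 152 and 608 in KO, and the groups overlapped in both. An AluJr pair on chromosome 7, chr7:102531310-102531624 and chr7:102630431-102630730, is 94.9% identical. The first had WT counts of 29.5, 152 and 5.25 against KO counts of 204, 492 and 303, and the second 32.8, 149 and 3.50 in WT and 349, 485 and 192 in KO. Their KO values lay above all WT values, but the WT values of each differed by more than the gap between the groups (log2 changes 2.54 ± 1.60 and 2.61 ± 1.62, edgeR, adjusted p = 0.761 and 0.759).

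**Figure D5:**
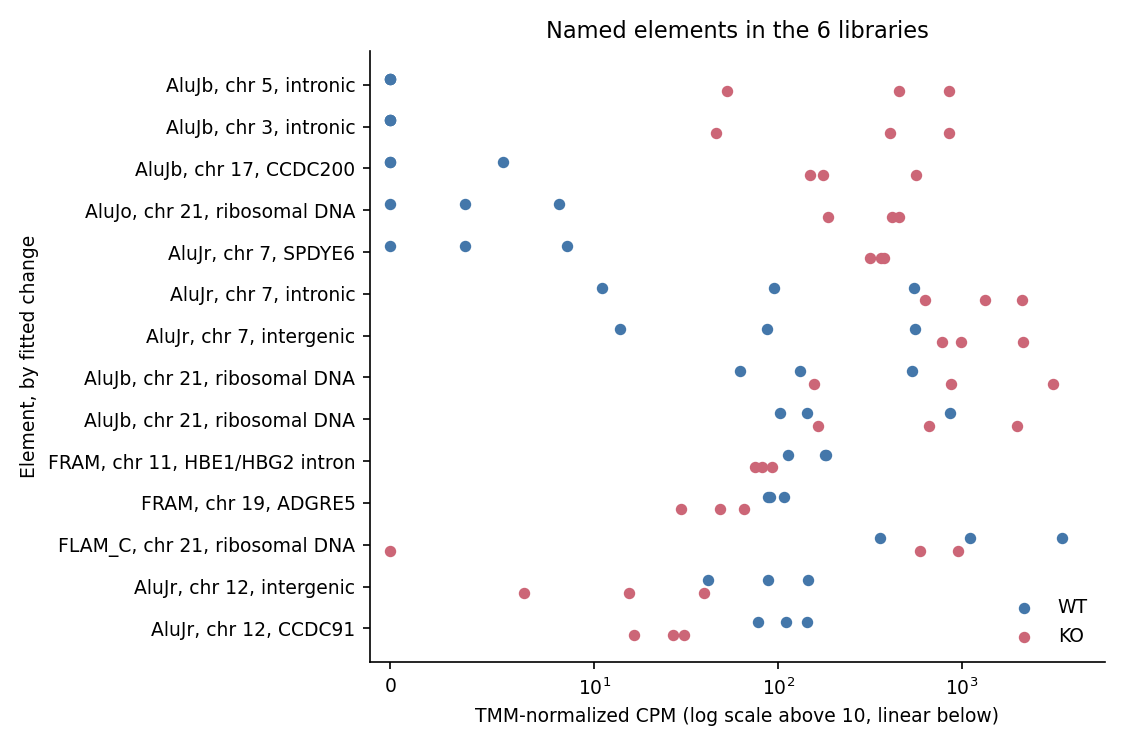
TMM-normalized CPM (horizontal axis, log scale above 10 and linear below) of the 14 named elements (vertical axis, ordered by fitted change) in the 3 WT (blue) and 3 KO (red) libraries. The 5 elements at the top have at least 1 WT library at 0 after rounding, and the 4 elements that lay lower in KO differ by less.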

How the data were processed

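The data were m5C-immunoprecipitated caRNA libraries of K-562 WT and TET2 KO cells, 3 each. Per the methods and labels, the authors used Trimmomatic 0.39 for trimming, HISAT2 2.1.0 for alignment to hg38, transcripts and spike-ins, Picard for duplicate removal and featureCounts for counting over repeat elements. The deposited table holds the authors' estimated counts, which are fractional: of the 22022 AluJ and monomer values above 0, 41.4% were below 1. The options behind this are not given in the sources used here, and how reads with several matches were divided affects old, repeated elements. No input or spike-in values were used.

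Counts were summed per subfamily or kept per element over the classes DNA, LINE, LTR and SINE, rounded, and fitted with edgeR 4.0.16 (TMM, filterByExpr, quasi-likelihood test, prior count 2) in R 4.3.3 over the whole table, with p-values adjusted by the Benjamini–Hochberg method over all features tested and a threshold of 0.05. SE is the size of the log2 change over the root of F. DESeq2 1.42.0, other scalings and filters, a replicate block, leaving out libraries or elements, and every class were alternatives. Shares and ratios were compared by an exact two-sided permutation test over 20 assignments. Gene context came from GENCODE release 44, and motifs and identities from hg38 sequence; sequences of single elements are not reported here. An element is exonic if it overlaps any exon, else intronic if it overlaps a gene. Elements within 50000 bp of the annotated ribosomal RNA genes of chromosome 21, or on the contigs chr22_KI270733v1_random and chrUn_GL000220v1, were called near ribosomal DNA. A copy is another AluJ or monomer element of at least 95% identity (edlib) and a length within 10%. An AluJ whose match to its consensus ends by base 150 is a left arm and one that starts at base 110 or later a right arm. All 8 subfamilies were named, and of the elements that passed the filter those called, the 5 largest rises and falls among those whose groups did not overlap, and the 5 with the highest mean count. Scripts were tested on simulated data. The members and lists were chosen with earlier results of these data known.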

Additional observations from a re-analysis of the deposited data

How the results depend on the processing

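The number of AluJ and monomer subfamilies called stayed 0 under all 15 alternatives. The number of elements called stayed 0 except under DESeq2's Wald test, which gave 14. Most of those 14 passed the filter on low counts through the KO libraries only. Over the whole table DESeq2 called 61 subfamilies and 174 elements against 6 and 3 by edgeR. The replicate numbers did not pair the libraries (correlations of same-number deviations −0.05, 0.04 and −0.09 across subfamilies). With a replicate block both counts stayed 0, and the log2 change turned to −0.043 for FLAM_C and 0.15 for FRAM.

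AluJo, AluJr4 and FLAM_A kept a positive sign under all 15 alternatives, but AluJr4 went from 0.83 to 0.46 without WT replicate 3. AluJb turned to −0.0568 with DESeq2 size factors or the Wald test, −0.0544 with no filter and −0.0938 without the highest element of each subfamily. Without elements that had 90% or more of their counts in 1 library, AluJr was 0.13, FAM 0.64, FLAM_C −1.80, FRAM 1.87, AluJb 0.87 (0.03 with all elements) and AluJr4 0.098. AluJb, FLAM_C and FRAM then had an unadjusted p under 0.05 by edgeR, against no subfamily of the 8 with all elements. In that setting 53 of all 397 subfamilies tested did so. The adjusted p-values (edgeR) were 0.361 for AluJb and FLAM_C and 0.248 for FRAM, so none was called. The cause was not tested. Leaving out 1 library at a time gave −0.014 to 0.13 for AluJb, −0.24 to 0.027 for AluJr, −2.93 to 2.45 for FAM, −1.07 to 1.12 for FLAM_C and −0.54 to 0.85 for FRAM.

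The difference against AluS and AluY stayed between 0.39 and 0.61, that against AluY alone between 0.84 and 1.14, that against AluS alone between 0.18 and 0.45, and the share's log2 ratio between 0.11 and 0.52. The intronic difference ranged from −4.68 to 0.61 percentage points with 1 library left out, and was 4.29 without elements with 90% of counts in 1 library. The exonic difference turned to 0.063 without elements near ribosomal DNA, an alternative chosen after seeing the data. The number of elements with counts per 100000 differed by 62.7 without the 10 highest elements, 0.13 with at least 10 counts per element, 76.9 without elements near ribosomal DNA and 23.4 for values of at least 1. The 14 named elements kept their sign under every alternative that tested them. For those that passed the filter through KO or WT libraries only, the filter itself favoured that sign. Library totals gave 1.59 and 1.64 for the AluJr pair on chromosome 7, which ran from 2.03 to 4.55 and from 2.09 to 4.53 with 1 library left out, and −1.79 and −1.81 for the FRAM elements. The median over tested elements was 2.06 with the replicate block and 0.96 to 2.84 with 1 library left out, over 179 to 241 elements. Few counts per element limit what single elements can show, since 80.4% were counted in 1 library.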
